A study of Homo sapiens with 26 samples.

Results

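The interferon-stimulated genes examined here are 45 genes that cells switch on when interferon reaches them, listed by name. Of these, 44 had a probe-set with a single gene symbol on the array, and STAT2 had none. Where a gene had several, the one with the highest mean over the 26 lines stands for it, which gave 44 of the 33297 probe-sets tested (19775 named genes). The arrays were hybridised with RNA from 26 drug naïve human B-cell cancer lines of the HBCCL panel, with 1 array per line, taken during exponential growth. The DLBCL group held 14 lines, 13 of diffuse large B-cell lymphoma and MC-116, labelled as an undifferentiated lymphoma. The MM group held 12 lines, 11 of multiple myeloma and AMO-1, labelled as a plasmacytoma, and among them KMS-12-BM and KMS-12-PE are sister lines. The labels call every line drug naïve and do not mention interferon. All grew in RPMI or IMDM medium with 10 to 20% serum, which was human serum for OCI-Ly3 and fetal bovine serum for the others. The response of each line to cyclophosphamide (C, for which mafosfamide was the surrogate), doxorubicin (H) and vincristine (O) was taken from the labels as AUC0, an area that counts the dose response curve only where it lies above 0, and lines that resist a drug have a large AUC0. Within each disease the tertiles of AUC0 make a line sensitive, intermediate or resistant. A line is the replicate, each is a single culture, and p-values measure the spread between lines. The sister lines were counted as separate replicates.

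Interferons are secreted proteins that warn cells of viral infection. Type I interferons bind the receptor made of IFNAR1 and IFNAR2, whose kinases JAK1 and TYK2 activate STAT proteins, and a complex of these with IRF9 enters the nucleus and binds the interferon-stimulated response element (ISRE) in the promoters of its target genes. Interferon gamma acts through another receptor and the gamma-activated site (GAS). The targets block viral entry, degrade or trap viral RNA and attach the ubiquitin-like protein ISG15 to other proteins, and many of them raise the sensing of further signals. In cells that meet no virus most of these genes are kept at a low basal level.

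The ISRE core and GAS were searched in the 250 bases before each gene's start, since both elements link the members at the level of sequence. Promoters from RefSeq (GRCh38.p14) were at hand for 36 of the 45 listed genes. The ISRE core, searched on both strands as TTTC, 2 bases of any kind and TTTC again, was present in 22 of these 36 (61.1%), against 3.71% of all 27305 genes with a promoter. The GAS, searched as TTC, 3 bases of any kind and GAA, which reads alike on both strands, was present in 11 of the 36 (30.6%), against 8.09% of all genes, and 6 genes held both. A gene with several starts was counted if any of its windows held a match. The windows below are shown for genes on which the results turn, with ISRE matches in capitals, 120 bases each, 5′ to 3′ on the gene's strand. The first 5 are IFIT1 (chr10:89392503-89392622, plus strand), IFI44L (chr1:78620328-78620447, plus strand), IFI27 (chr14:94110616-94110735, plus strand), PLSCR1 (chr3:146544608-146544727, minus strand) and ISG15 (chr1:1013377-1013496, plus strand), and each ends at the base before the start.
IFIT1: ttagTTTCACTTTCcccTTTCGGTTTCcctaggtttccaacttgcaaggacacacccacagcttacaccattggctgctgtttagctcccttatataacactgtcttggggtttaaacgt
IFI44L: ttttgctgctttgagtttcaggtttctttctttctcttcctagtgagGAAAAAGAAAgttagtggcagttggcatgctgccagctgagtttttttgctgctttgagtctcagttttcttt
IFI27: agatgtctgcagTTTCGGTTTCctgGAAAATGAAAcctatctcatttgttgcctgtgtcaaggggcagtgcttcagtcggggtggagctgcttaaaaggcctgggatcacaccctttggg
PLSCR1: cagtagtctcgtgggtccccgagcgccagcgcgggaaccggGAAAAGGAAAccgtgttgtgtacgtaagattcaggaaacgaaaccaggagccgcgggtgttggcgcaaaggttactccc
ISG15: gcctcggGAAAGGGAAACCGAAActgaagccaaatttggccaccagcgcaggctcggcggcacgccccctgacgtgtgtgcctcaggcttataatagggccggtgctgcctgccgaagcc
In ISG15 the capitals are 2 overlapping matches. The window of BST2 (chr19:17405690-17405809, minus strand), which also holds 2 overlapping matches, begins 179 bases before the start.
BST2: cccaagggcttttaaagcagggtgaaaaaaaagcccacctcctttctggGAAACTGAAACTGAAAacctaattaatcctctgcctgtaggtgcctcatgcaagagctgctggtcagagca
IRF1, whose expression had the smallest p among the members in the comparisons of H and O, had no ISRE match in its window, and the capitals in its promoter (chr5:132490833-132490952, minus strand, from 179 bases before the start) mark a GAS match.
IRF1: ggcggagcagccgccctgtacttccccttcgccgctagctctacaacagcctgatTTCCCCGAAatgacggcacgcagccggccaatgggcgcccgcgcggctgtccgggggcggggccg
A match is a description of the letters only. Members with and without an ISRE match had a similar correlation with the other members over the lines, with a median of 0.65 (n = 22) and 0.66 (n = 13).

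In 3 lines the members were far above the level of the others, with no treatment named in the labels. The line score, which is the mean over the 44 genes of the deviation from each gene's mean over the 26 lines on the log2 scale, was 2.84 in the DLBCL line HBL-1, 2.19 in the MM line RPMI-8226 and 1.74 in the MM line U-266. The next lines were OCI-Ly19 with 0.50 and RIVA with 0.38, both DLBCL, and the lowest were the MM lines KMS-12-BM with -0.95, OPM-2 with -0.92 and KMM-1 with -0.89. The SD of the score was 0.92 over all lines and 0.39 over the 23 others. The gap between U-266 and OCI-Ly19 was larger than that SD of the 23, but not than their whole range. HBL-1 had the highest value of all lines for 20 of the 44 genes and was among the 3 highest for 34. RPMI-8226 was highest for 7 and among the 3 highest for 26, and for U-266 the counts were 5 and 28. The same 3 lines had the highest scores with the median in place of the mean, with z scores and with the probe-set of the largest SD, although U-266 (2.34) passed RPMI-8226 (1.96) with the median.

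**Figure D1:**
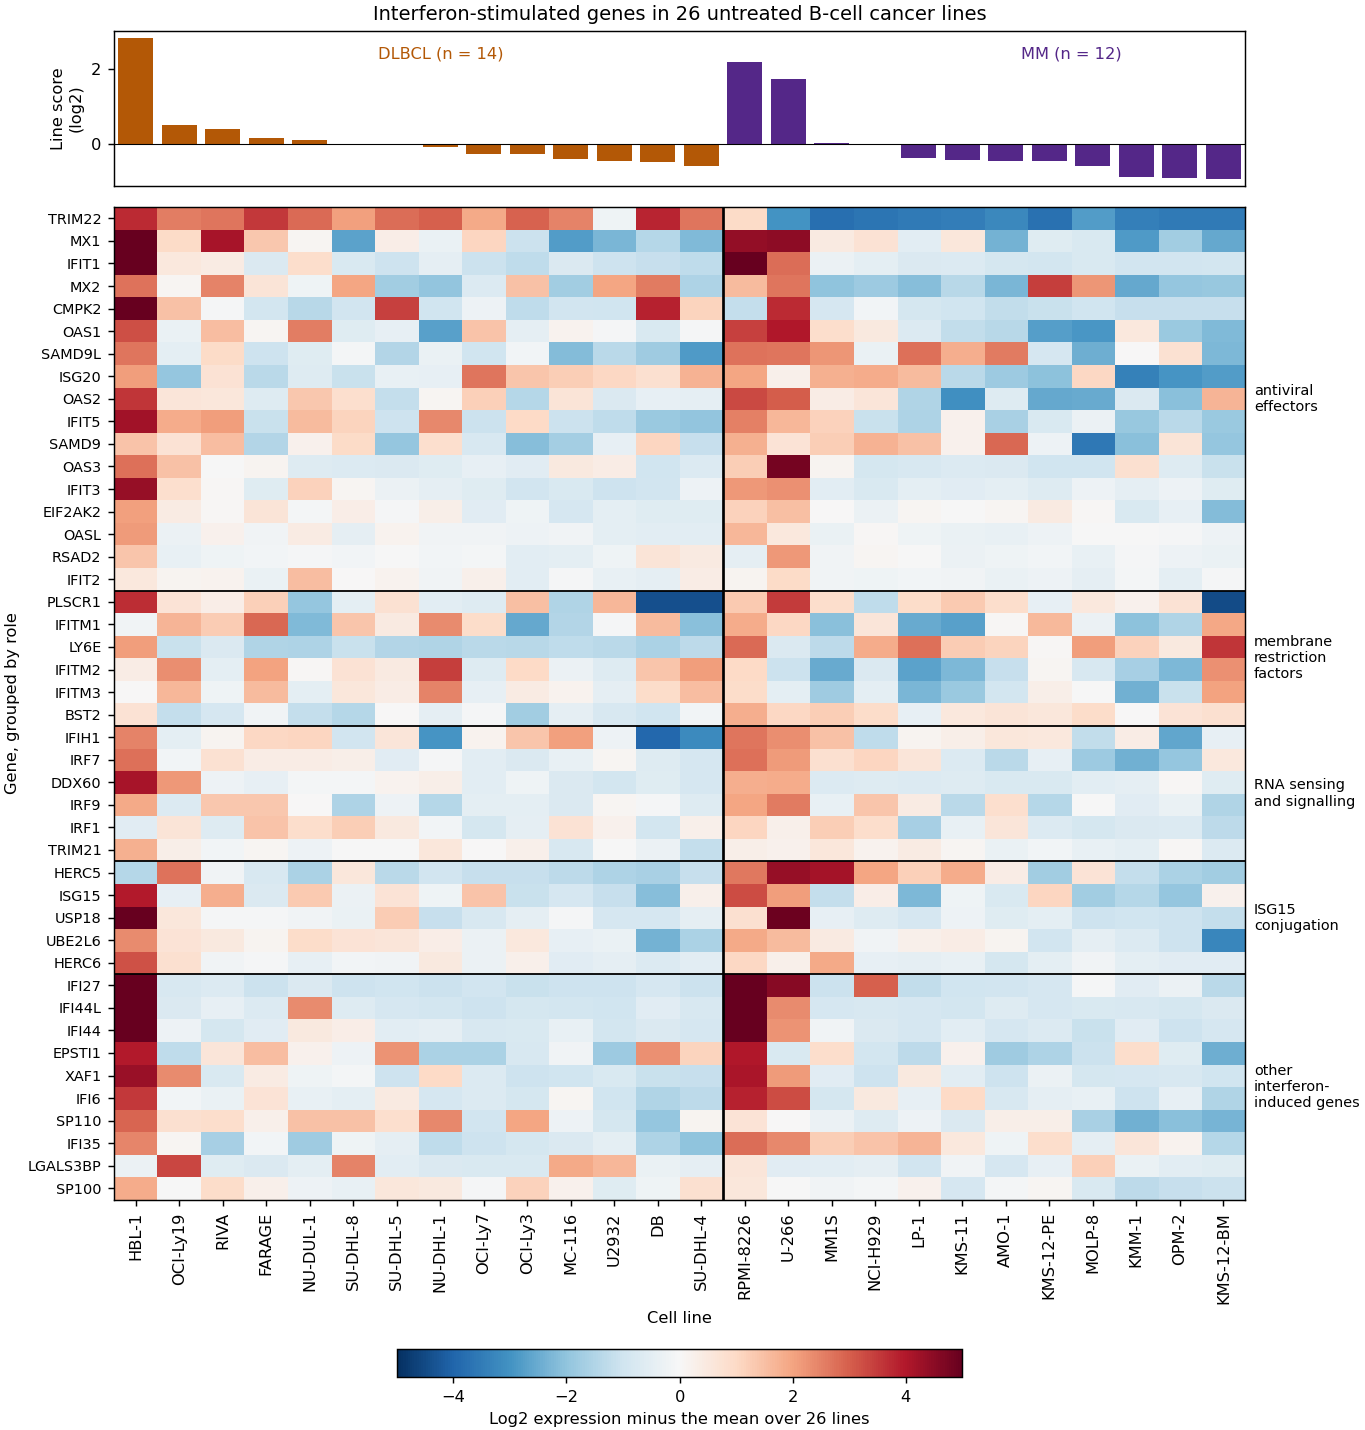
Log2 expression of the 44 interferon-stimulated genes (rows, grouped by role) in 26 lines (columns), drawn as the deviation from each gene's mean over the lines, with the line score as bars above. The columns of HBL-1, RPMI-8226 and U-266 are red for most genes, with scores of 2.84, 2.19 and 1.74, and the score of every other line is at or below 0.50.

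All 3 grew in RPMI with 10% fetal bovine serum, as did 12 other lines, and OCI-Ly3 in human serum had a score of -0.29. The array medians lay between 5.65 and 5.72 in all 26 lines, which the normalisation brings about, so they say nothing of the RNA of a line. Markers of B cells had a mean level of 9.72 to 11.88 in the DLBCL lines and 5.32 to 6.60 in the MM lines, and those of plasma cells 7.09 to 10.46 and 9.12 to 12.61. Markers of T cells, NK cells, myeloid and stromal cells lay between 4.63 and 6.55 in every line. None of the 3 lines had the highest level of any of these 6 lists, and their part in the score was not tested further. The array measures RNA of a whole culture, so fewer expressing cells and less RNA per cell cannot be told apart.

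Of the 17 antiviral effectors, IFIT1, MX1 and CMPK2 stood highest above the median of the 23 other lines in HBL-1, by 8.08, 6.30 and 6.05. IFIT1, which binds viral RNA that lacks the host cap structure, had log2 values of 11.85 in HBL-1, 9.66 in RPMI-8226 and 7.33 in U-266, against a median of 3.77 and a highest value of 5.42 (NU-DUL-1) in the 23 others. MX1, a GTPase that traps viral nucleocapsids, had 13.36, 12.06 and 12.12 in the same order. In the other lines MX1 had a median of 7.06, but RIVA reached 11.80, so that the high level was not particular to the 3 lines. OAS3, which makes the messenger that activates RNase L, was highest in U-266 with 5.45 above the median of the others, and 3.43 above it in HBL-1. CMPK2, a mitochondrial nucleotide kinase, was at 9.34 in HBL-1 and 7.96 in U-266, but DB reached 8.09 and SU-DHL-5 7.67. In RPMI-8226 it was at 3.05, beside a median of 3.28 in the other lines. Both values are near the lowest on the arrays (2.41). The role's score was 3.23 in HBL-1, 1.91 in RPMI-8226 and 2.08 in U-266.
TRIM22, a ubiquitin ligase that restricts retroviruses, had the largest SD of all members (3.10) and followed the disease rather than these lines. It was at 11.07 in HBL-1, 8.30 in RPMI-8226 and 4.37 in U-266.

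The 6 membrane restriction factors stood less far above the other lines. Their score was 1.12 in HBL-1, 1.62 in RPMI-8226 and 0.54 in U-266, and KMS-12-BM with the lowest line score of all reached 1.03. The median correlation between the 6 genes was -0.056, against 0.43 between the antiviral effectors. IFITM1, IFITM2 and IFITM3, which stop the fusion of viruses with the cell membrane, were highest in FARAGE, NU-DHL-1 and NU-DHL-1. IFITM2 and IFITM3 had a correlation of 0.96 over the 26 lines, also 0.96 without the 3 lines, and since the genes are close copies their probe-sets may bind each other's RNA. PLSCR1, a phospholipid scramblase, was high in 2 of the lines, with 12.21 in HBL-1 and nearly as much in U-266, against 9.81 in RPMI-8226 and at most 10.16 (U2932) elsewhere. LY6E was 3.20 above the median of the other lines in HBL-1 and 3.97 above it in RPMI-8226, but KMS-12-BM had its highest value.

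The 5 genes of ISG15 conjugation each had their highest value in HBL-1 or U-266. ISG15, the protein that is attached, had 13.15 in HBL-1, 12.45 in RPMI-8226 and 11.27 in U-266 against a median of 8.78 in the others. USP18, the protease that removes it again, was at 10.68 in HBL-1 and 10.41 in U-266 but at 6.33 in RPMI-8226, below the 6.78 of SU-DHL-5. HERC5, the main ligase for ISG15, was at 4.05 in HBL-1, below the median of 4.34 of the 23 others, while U-266 had 9.87, MM1S 9.65 and RPMI-8226 8.11. The line with the highest score therefore had a low level of this ligase.

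The 6 measured genes of RNA sensing and signalling had scores of 2.07, 1.76 and 1.56 in HBL-1, RPMI-8226 and U-266. IRF9, the DNA-binding partner of the STAT complex, was between 10.32 and 11.06 in the 3 lines and at most 9.81 (NCI-H929) in the others. IRF7, which amplifies the interferon response, was 2.50 to 3.13 above the median of the others. IRF1, a transcription factor that interferon gamma induces, was at 7.45 in HBL-1, below the median of 7.91, and its highest value of 9.46 was in FARAGE.
The 10 other induced genes had the highest scores of any role in HBL-1 (3.75) and RPMI-8226 (3.41), and 1.56 in U-266. IFI27 was at 12.42 in RPMI-8226, 11.10 in HBL-1 and 10.22 in U-266, against a median of 4.67 and a highest value of 8.64 (NCI-H929). IFI44L was at 11.80 in HBL-1, 9.93 in RPMI-8226 and 6.82 in U-266, level with the highest of the others, NU-DUL-1 with 6.82. LGALS3BP, a secreted glycoprotein, was highest in OCI-Ly19 (9.26) and between 5.33 and 6.51 in the 3 lines.

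The genes that encode interferons were dim in all lines. Of the 10 interferon ligands measured, from a list of other genes of the pathway (43 of 45 measured), none exceeded 5.94 in any line, and this holds for the 3 lines, where the highest value was 5.50 (IFNL1 in HBL-1). IFNB1, the beta interferon, was highest in HBL-1 with 4.96, against 4.76 in RPMI-8226 and 4.40 in U-266, and at most 4.87 in the others. Array values this low lie near the background of the platform, and protein was not measured. Of the 43 genes, 6 had their highest value in HBL-1, RPMI-8226 or U-266. Besides IFNB1 these were IFNAR1, IRF5 and CGAS, which senses DNA in the cytoplasm, in U-266. The others were DHX58, a regulator of RNA sensing, in HBL-1 and TLR9, an endosomal DNA sensor, in RPMI-8226. Among the 44 members 32 had their highest value in these lines. That count cannot be set against the 6, because the score that picked the 3 lines is made of the members.

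Co-expression of the members rested in large part on the same lines. The median correlation over the 946 pairs of members was 0.37 over the 26 lines, against 0.0090 over pairs of all 19775 genes. It was 0.41 within the 14 DLBCL lines and 0.49 within the 12 MM lines. Without the 2 lines farthest from the median score it was 0.23, and without the 3 lines 0.12, and the share of pairs over 0.5 fell from 34.7% to 7.61%. In all genes that share was 1.66% and 2.14%. Some members were dim in the 23 others, as IFIT1, IFI44L and DDX60 with medians of 3.77, 3.67 and 3.21, where the lowest array value is 2.41. How far such dim values lower the correlation over the 23 lines was not tested. All points share the array and its normalisation. The closest pair was IFIT1 and IFI44L with 0.97 over 26 lines and 0.65 over 23 lines. The most opposed were TRIM22 and BST2 with -0.61 and TRIM22 and LY6E with -0.58, which became -0.77 and -0.80 without the 3 lines. These pairs follow the disease, since TRIM22 was lower in MM lines and BST2 and LY6E were higher. With values centred per disease the median over the 946 pairs was 0.42, and no pair was below -0.38.
The members most like the mean of the other members were IFIT1 (0.94) and IFI44 (0.92), and the least like were LGALS3BP (0.04) and LY6E (0.09). Of the 44 members 20 had a correlation over 0.7 with the line score, of which each member is itself a part. Outside the list, where genes have no part in the score, 12 of 19731 had such a correlation. The 10 closest were ZNF667 (0.81), RNF183 (0.81), LINC02525 (0.77), DHRS3 (0.75), LAP3 (0.74), SLFN5 (0.74), FSTL5 (0.74), ARHGAP26 (0.74), LINC02888 (0.74) and SHFL (0.74). Over the 23 other lines these values lay between -0.13 and 0.65, and SHFL, which inhibits viral translation, kept the highest of the 10 with 0.65. LAP3, a leucine aminopeptidase, was at 12.65, 12.07 and 12.63 in HBL-1, RPMI-8226 and U-266, with at most 11.82 elsewhere.

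Differences between MM and DLBCL lines were tested with limma over all 33297 probe-sets, with Benjamini-Hochberg adjustment. The share of members that differed was close to that of all probe-sets, and 5 of 44 (11.4%) passed an adjusted p of 0.05, against 10.9% of all probe-sets. The median difference of the members was -0.12, against -0.021 over all probe-sets, with 15 higher and 29 lower in MM (55.1% of all probe-sets were lower). The direction turned without HBL-1, where the median was 0.097 with 25 higher, and the median was -0.41 without RPMI-8226, -0.64 with 36 lower without RPMI-8226 and U-266, and -0.35 without all 3. No member separated the diseases without overlap, as 0.18% of all probe-sets did. Of the 5, 3 were higher in MM, as were 5.49% of all probe-sets, and 2 were lower, as were 5.4%.
TRIM22 was at 7.12 to 11.15 in the DLBCL lines with a median of 10.07, and at 3.56 to 8.30 in the MM lines with a median of 3.84. RPMI-8226 was the MM line at 8.30, above the DLBCL line U2932 at 7.12, and no other line crossed. TRIM22 differed by -5.68 (SE 0.43, adjusted p = 2.2e-09 from limma), from 9.97 ± 0.99 (SD, n = 14) to 4.28 ± 1.30 (SD, n = 12). IFITM2 was at 8.32 to 12.43 in DLBCL (median 9.56) and 6.30 to 11.26 in MM (median 7.87), a difference of -1.82 (SE 0.52, adjusted p = 0.0243), with a wide overlap.
LY6E, a surface protein that blocks the fusion of coronaviruses, was at 6.15 to 9.81 in DLBCL with a median of 6.38 and at 6.44 to 11.33 in MM with a median of 8.95. HBL-1 was the DLBCL line at 9.81, and the difference was 2.35 (SE 0.46, adjusted p = 0.00124). BST2, which tethers budding virions to the cell, was at 7.97 to 10.42 in DLBCL (median 9.07) and 9.28 to 11.49 in MM (median 10.44), with HBL-1 again the highest DLBCL line and RPMI-8226 the highest MM line. Its difference was 1.35 (SE 0.24, adjusted p = 0.000391). IFI35 was at 6.05 to 10.52 in DLBCL (median 7.26) and 6.64 to 10.87 in MM (median 8.82), a difference of 1.5 (SE 0.44, adjusted p = 0.0276), which did not pass without RPMI-8226 (1.31, adjusted p = 0.0510) or without RPMI-8226 and U-266 (1.14, adjusted p = 0.0929). Without the 3 lines 7 members passed, beside 3122 of 33297 probe-sets. The 5 named here kept their direction, with TRIM22 at -6.01 and LY6E at 2.63.

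**Figure D2:**
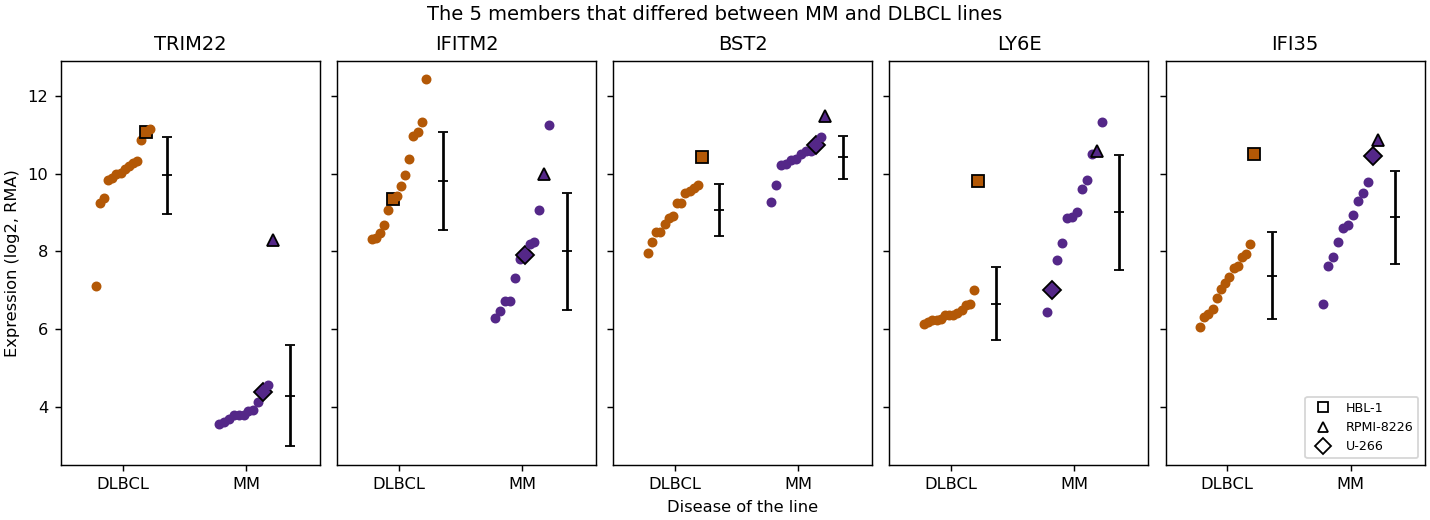
Log2 expression of the 5 members that passed in MM against DLBCL lines, a point per line, with the mean and SD beside each group and HBL-1, RPMI-8226 and U-266 marked. TRIM22 lies between 3.56 and 8.30 in MM and between 7.12 and 11.15 in DLBCL, and HBL-1 is the highest DLBCL line for BST2, LY6E and IFI35.

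The other genes of the pathway differed between the diseases in 11 of 43 cases, against 10.9% of all probe-sets. Higher in MM were both chains of the type I receptor, IFNAR1 by 1.09 (adjusted p = 0.00119) and IFNAR2 by 1.09 (adjusted p = 0.00565), and the DNA sensing genes CGAS by 1.35 and STING1 by 1.76. ADAR, which edits double-stranded RNA, was higher by 0.76, and IRF4, a factor of plasma cells, by 2.61. Lower in MM were IRF8, a factor of B cells (-4.17, adjusted p = 1.2e-05), SOCS1, a feedback inhibitor (-1.55), the adaptor MYD88 (-1.04), TLR9 (-0.98) and RIGI, an RNA sensor (-0.54). Both directions were present among the nucleic acid sensors and adaptors, the interferon regulatory factors and the negative regulators, while the receptors that passed were both higher in MM.

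The classes of the 3 lines set which comparisons they enter. HBL-1 was intermediate for all 3 drugs and so was in none of the comparisons of resistant and sensitive lines. RPMI-8226 and U-266 had the same classes, resistant to C, intermediate for H and sensitive to O. The comparison for H therefore held none of the 3, while in those for C and O they were 2 of the 8 resistant and 2 of the 8 sensitive lines, and they were also 2 of the 4 MM lines there.

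**Figure D3:**
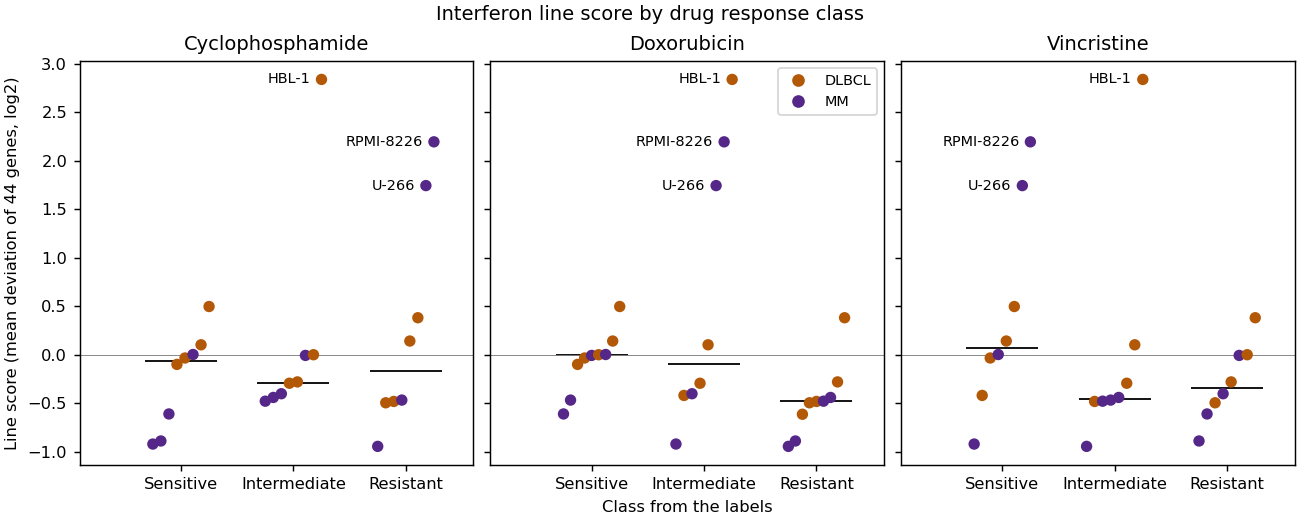
Line score by class for each drug, a point per line coloured by disease, with the median as a bar. HBL-1 (2.84) is intermediate for each drug, RPMI-8226 (2.19) and U-266 (1.74) are resistant to cyclophosphamide and sensitive to vincristine, and every other line is at or below 0.50.

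Resistant and sensitive lines were compared with a disease term in the model. For C no member passed (0 of 44), nor did any probe-set (0% of 33297), and 3 members had an unadjusted p under 0.05 (6.82%, against 4.44% of all probe-sets). The members had a median difference of 0.49 and 34 of 44 were higher in the resistant lines, against 49.9% of all probe-sets. Without RPMI-8226 and U-266 the median was -0.30 and 30 of 44 were lower, and it was 0.18 without RPMI-8226 alone and 0.30 without U-266 alone. Within the DLBCL lines it was -0.29 and within the MM lines 1.20. The members of the smallest p were IRF9, IFITM1 and MX2. IRF9 was at 6.94 to 11.06 in the 8 resistant lines (median 9.53) and 7.02 to 8.44 in the 8 sensitive lines (median 8.09), a difference of 1.29 (SE 0.47, adjusted p = 0.985). It was 1.28 within DLBCL, where neither line takes part, and 0.76 without them. IFITM1 differed by 1.77 (SE 0.65) and MX2 by 1.99 (SE 0.85), both with adjusted p = 0.985.

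For H, where none of the 3 lines took part, no member passed either (0% of all probe-sets), but 7 of 44 had an unadjusted p under 0.05 (15.9%, against 6.14% of all probe-sets), all lower in the resistant lines (2.63% of all probe-sets). The median difference was -0.41, against 0.017 over all probe-sets, with 37 of 44 lower (44.9% of all probe-sets were). Leaving out each line in turn gave medians between -0.45 and -0.31, and the median was -0.49 in DLBCL and -0.28 in MM lines alone. IRF1 was at 6.73 to 8.30 in the 9 resistant lines, with a median of 7.33, and at 7.16 to 9.46 in the 9 sensitive lines, with a median of 8.70. The ranges overlapped. The sensitive line MOLP-8 lay below the resistant lines RIVA, SU-DHL-4, U2932, KMM-1, KMS-11 and KMS-12-PE, and the sensitive line NU-DHL-1 below SU-DHL-4 and U2932. The difference was -1.17 (SE 0.28, p = 0.000708, adjusted p = 0.454 from limma), -1.13 within DLBCL and -1.23 within MM. UBE2L6, the conjugating enzyme for ISG15, was at 6.24 to 9.99 in the resistant lines (median 8.83) and 9.05 to 10.19 in the sensitive lines (median 9.82), a difference of -1.22 (SE 0.42, adjusted p = 0.715). SP110, a nuclear body protein, differed by -1.27 (SE 0.46, adjusted p = 0.725).

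For O no member or probe-set passed (0%), and 9 of 44 members had an unadjusted p under 0.05 (20.5%, against 3.54% of all probe-sets), all lower in the resistant lines (1.85% of all probe-sets). This count depended on single lines, being 2 without DB, 3 without RPMI-8226, 4 without OCI-Ly19, LP-1, MOLP-8, NCI-H929 or U-266, 5 without FARAGE or KMM-1 and 16 without OPM-2. The median difference was -0.72 and 40 of 44 were lower, against 50.7% of all probe-sets. Without RPMI-8226 and U-266 the median was -0.13, with 28 lower and 3 at an unadjusted p under 0.05. The share of all probe-sets at that p was not counted with lines left out, so these counts cannot be set against it. The median was -0.46 without RPMI-8226 alone, -0.16 within DLBCL and -1.25 within MM. IRF1 again had the smallest p, at 6.38 to 9.25 in the 8 resistant lines (median 7.23) and 7.34 to 9.46 in the 8 sensitive lines (median 8.73). Its difference of -1.10 (SE 0.40, p = 0.0154, adjusted p = 0.999) was -1.03 without the 2 lines. IFI6, a mitochondrial protein, differed by -1.41 (SE 0.60) and DDX60, a helicase of RNA sensing, by -1.01 (SE 0.43), both with adjusted p = 0.999.

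Over all tested lines the slope of expression on AUC0 was fitted with a disease term, and here HBL-1 takes part. No member passed for any drug, and no probe-set did (0%). For C, with 24 lines, the median slope of the members was 0.0042 per 100 units of AUC0, with 22 rising and 22 falling, and no member had an unadjusted p under 0.05 (3.97% of all probe-sets did). Without RPMI-8226 and U-266 it was -0.32. The smallest p were those of IRF9 (0.91, SE 0.45), MX2 (1.45, SE 0.73) and HERC6 (-0.62, SE 0.34), each with adjusted p = 1.0. For H, with 26 lines, the median was -0.10 with 29 of 44 falling, and -0.31 with 37 falling without the 3 lines. It ran from -0.27 without HBL-1 to -0.0075, with 23 of 44 falling, without KMM-1. For H 2 members had an unadjusted p under 0.05 (4.97% of all probe-sets). Without the 3 lines 9 did, and no probe-set passed the adjusted threshold. The share of all probe-sets at an unadjusted p under 0.05 was not counted there, so the 9 cannot be set against it. For O, with 24 lines, the median was -0.91 with 40 of 44 negative (52.3% of all probe-sets). At an unadjusted p under 0.05 were 3 members (5.68% of all probe-sets). The median was -0.43 without U-266 and -0.083 with 25 negative without the 3 lines. RPMI-8226 and U-266 had an AUC0 of O of 111 and 90, in a range of 90 to 187 over the MM lines, and 350 and 376 for C.
IRF1 had the smallest p for H and for O among the members. Its slope was -1.10 per 100 units of AUC0 of H (SE 0.30, p = 0.00131, adjusted p = 0.973) and -1.55 per 100 units of O (SE 0.60, p = 0.0167, adjusted p = 0.873). Without the 3 lines the slopes were -1.08 and -1.47. HERC5 had a slope of -1.5 for H (SE 0.67) and SP110 of -0.91 (SE 0.51), and IFIH1, the sensor of long double-stranded RNA, had -2.58 (SE 1.06) and OAS3 -2.09 (SE 0.97) for O. None of these passed, with adjusted p from 0.873 to 0.973.

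**Figure D4:**
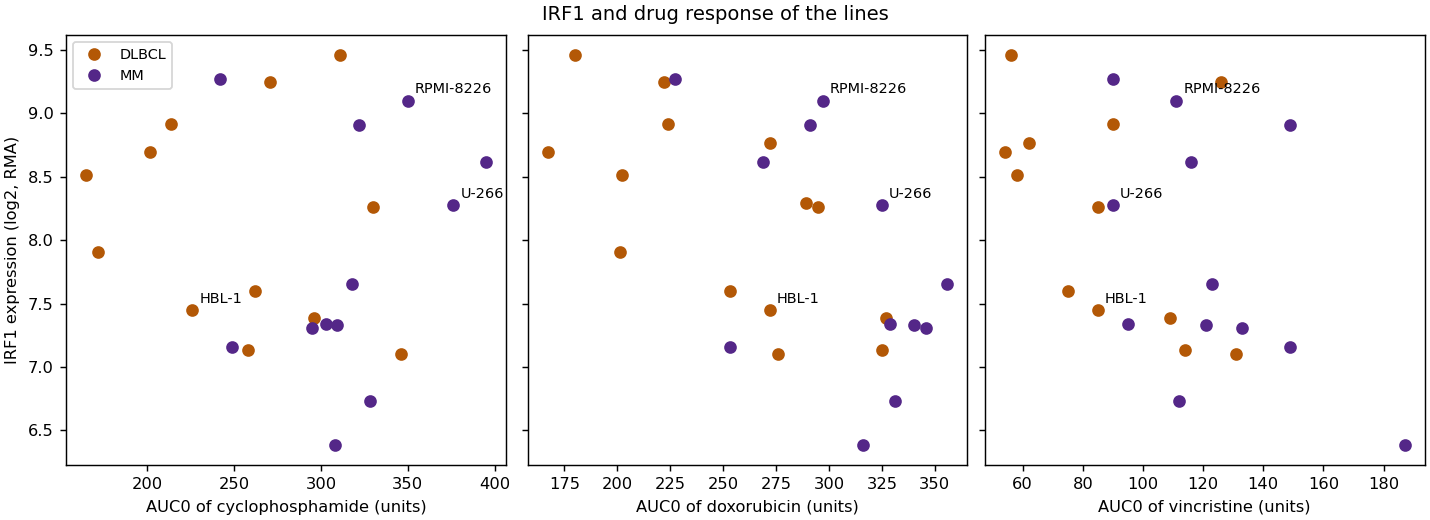
IRF1 (log2) against AUC0 of each drug, a point per line, with HBL-1, RPMI-8226 and U-266 named. IRF1 runs from 6.38 to 9.46, the slope with a disease term is -1.10 per 100 units for doxorubicin and -1.55 for vincristine, and neither passed over all probe-sets.

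**Figure D5:**
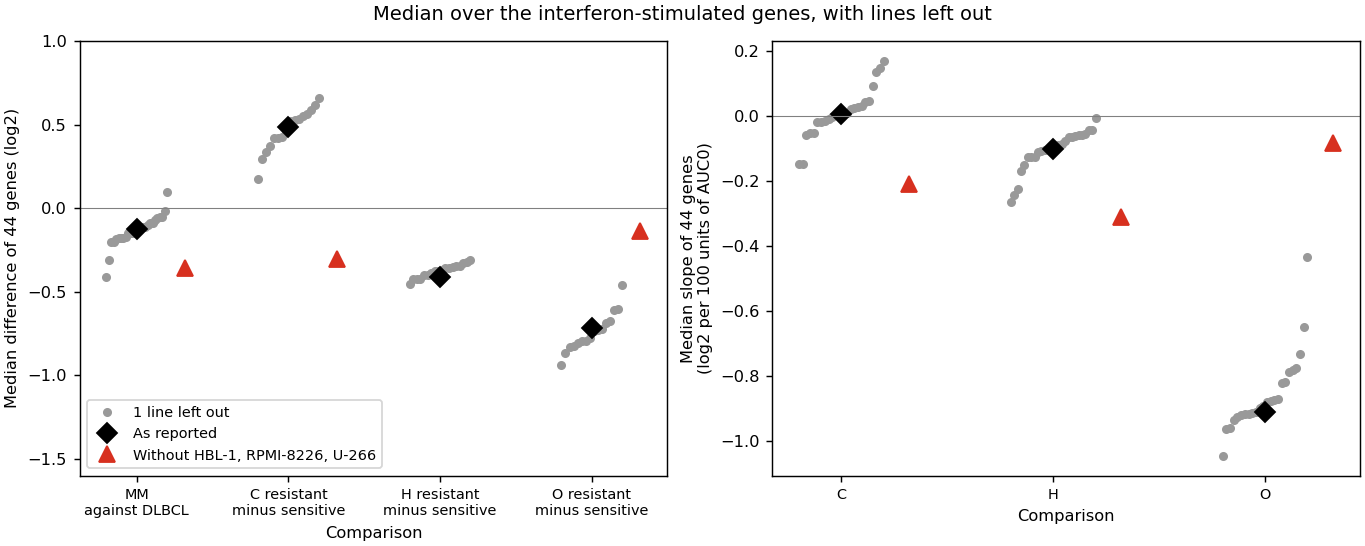
Median over the 44 members of the difference between groups (left, log2) or of the slope on AUC0 (right, log2 per 100 units), as reported, without each line singly and without the 3 lines. For C resistant minus sensitive the median moves from 0.49 to -0.30 and for O from -0.72 to -0.13 without the 3 lines, while for H it is -0.41 and none of the 3 takes part.

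Whether the class difference itself differed between the diseases was tested with an interaction term. No member passed for C, H or O, where 8, 4 and 0 of 33297 probe-sets did (0.024%, 0.012% and 0%), and 7, 5 and 2 members had an unadjusted p under 0.05 (4.53%, 8.72% and 3.45% of all probe-sets). For C the median interaction of the members was 1.55 and for O -0.79, and without RPMI-8226 and U-266 these were 0.23 and 0.24. ISG20, an exonuclease that degrades single-stranded RNA, had the smallest p among the members for H. It was at 10.26 to 12.20 in the 5 resistant DLBCL lines and 7.60 to 9.17 in the 5 sensitive ones. In MM it was at 6.17 to 8.19 in the 4 resistant lines and 7.74 to 11.39 in the 4 sensitive ones. The interaction was -5.53 (SE 0.95, adjusted p = 0.0666 from limma). With dim probe-sets left out, where only 20647 were adjusted over, it passed (adjusted p = 0.0461 from limma).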

How the data were processed

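Expression was measured on HG-U133 Plus 2.0 arrays. The authors deposited log2 values made by RMA (affy in R 3.0.1 per the labels), a method that subtracts background, gives every array the same distribution and sums up the probes of each probe-set, and so can hide a shift of all genes. The 62 control probe-sets were left out, those lacking a single symbol were tested unnamed, and names came from the platform annotation. The members, lists and tests were chosen with earlier results of these data known. Named in detail were the 6 members of the largest SD, those called or the 3 of the smallest p, the ends of the correlation with the score, and the 10 genes most like it. Models were fitted by limma 3.58.1 (R 4.3.3) to all 33297 probe-sets, with a disease term for the drugs, and adjusted by Benjamini-Hochberg with a threshold of 0.05. Values after ± are SDs. The fits were tested on simulated data. Scores, correlations and medians are descriptions with no test, computed in Python 3.11.15 (numpy 2.4.6, pandas 2.3.3). Motifs were searched on both strands of RefSeq promoters, and figures drawn with matplotlib 3.10.9. The number of arrays limits the precision. The doxorubicin class carries another drug's name in the labels and was read by its place, and tertiles of AUC0 gave the labelled class for every line.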

Additional observations from a re-analysis of the deposited data

Results flagged for a closer look

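The line score or a member named for a drug was looked at in 27 groups of 8 or 9 lines, and 3 held a line far from the others. Chance flags about 1 in 20 independent groups, but these groups share lines, so the 3 cannot be set against that rate. HBL-1 was such a line in 2 of the 3, with the same score of 2.84, already known to be the highest. The other lines intermediate for cyclophosphamide lay between -0.48 and -0.0010, and those intermediate for vincristine between -0.95 and 0.10. Among the 9 lines resistant to doxorubicin RIVA had a score of 0.38, while the others lay between -0.95 and -0.28. Without RIVA the median difference of the members between lines resistant and sensitive to doxorubicin was -0.45. RPMI-8226 and U-266 lay far above the other lines too, but were in the same groups and so had each other as neighbours.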

How the results depend on the processing

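The 5 members that differed between MM and DLBCL lines, beside 3628 of 33297 probe-sets, were 8 when dim probe-sets were left out. A probe-set was dim if its highest value over the lines was under 6, which held for no member. Some members, such as IFIT1 and IFI44, reached 6 only in HBL-1, RPMI-8226 or U-266. In that fit fewer probe-sets were tested and adjusted over, and 3583 of 20647 passed. With each line left out 4 to 7 members passed, beside 3182 to 3699 of 33297 probe-sets. The median of the members there ran from -0.41 without RPMI-8226 to 0.097 without HBL-1. For C the median difference of resistant and sensitive lines turned to -0.29 in DLBCL lines alone and to -0.30 without HBL-1, RPMI-8226 and U-266, and with each line left out it lay between 0.18 and 0.66. The median slope for C, near 0, turned negative with all probe-sets of a gene tested (-0.0032), in DLBCL lines alone (-0.41), without a disease term (-0.086), with values centred and scaled per disease (-0.025), without the 3 lines (-0.21) and without RPMI-8226 and U-266 (-0.32), and ran from -0.15 to 0.17 with each line left out. For the interaction of H class and disease 1 member passed when dim probe-sets were left out, beside 11 of 20647 probe-sets. No member passed in any other class, slope or interaction fit for C, H or O under the alternatives run. Leaving out the 3 lines, or RPMI-8226 and U-266, was chosen after the data were seen. No paired analysis was possible because each line is a single sample. With 8 or 9 lines a group, and no array repeated, small differences were not detectable.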
